A study of Mus musculus with 22 samples.

Results

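Mouse embryonic stem cells (ESCs) labelled as knockout (KO) for Mettl3 were set against ESCs labelled wild type (WT) for it, as 2 KO and 2 WT of the 22 RNA-seq libraries in the study. The 4 libraries were chosen by the genotype in their titles, and they were fitted without the other 18, which carry other genotypes and treatments. The protocols describe male ESCs of the 129 strain, kept without feeder cells in serum with leukaemia inhibitory factor (LIF), and total RNA depleted of ribosomal RNA. The sources used here do not say how the Mettl3 lines were made, how many clones they represent or whether the replicates are separate cultures, so p-values measure the spread between these libraries alone. Levels are in CPM, counts relative to the library total after scaling the 4 libraries to each other, in the order replicate 1 and replicate 2, and a number alone in brackets after a gene is its log2 fold change, KO over WT. In bulk RNA, fewer cells of a type and less RNA per cell cannot be told apart.

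METTL3 is the catalytic subunit of the complex that places N6-methyladenosine (m6A) on RNA, with METTL14 as its partner and WTAP, VIRMA, RBM15 and CBLL1 among its other subunits. Readers of the YTH family bind the mark: YTHDF proteins act on methylated mRNA in the cytoplasm, with YTHDF2 known for speeding its decay, and YTHDC1 acts in the nucleus. In mouse ESCs the mark is known to shorten the life of transcripts of pluripotency genes, and it lies mostly in long internal exons and near stop codons.

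The KO libraries held 26.38 and 26.2 M counts and the WT libraries 24.96 and 28.66 M. Repeat families took 26.9 and 28.78% of the counts in KO, and 26.84 and 27.09% in WT. Of 12793 entries with a mean of at least 5 CPM, 85 differed at least 2-fold between the KO replicates and 4 between the WT replicates. The SD of the log2 ratio between replicates was 0.29 in KO and 0.165 in WT. The entry that separated the KO replicates most was Rprl2, an RNase P RNA-like gene, which had 189.6 and 0.711 CPM in KO, against 1.96 and 2.48 CPM in WT. Thbs1, an extracellular matrix protein (273 and 76.5 CPM in KO, against 103 and 115 CPM in WT), and Sfn, an epithelial 14-3-3 protein (40.4 and 10.7 CPM in KO, against 25.5 and 24.7 CPM in WT), also differed more between the KO replicates than between the WT replicates. Among ESC markers, 8 genes including Pou5f1, Sox2, Nanog and Esrrb summed to 1287 and 1284 CPM in KO and 1667 and 1677 CPM in WT and were expressed in all 4 libraries. Tdgf1, 1 of the 8, made up most of that difference, with 167 and 106 CPM in KO and 418 and 422 CPM in WT. Utf1 (-0.76), Dppa5a (-0.57), Zfp42 (-0.31), Sox2 (-0.21) and Esrrb (-0.20) also had lower levels in both KO libraries, while Pou5f1 and Nanog were not lower in KO. Fibroblast or feeder markers, 8 genes, summed to 69.2 and 33.1 CPM in KO and 86 and 88.2 CPM in WT.

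Genes of chromosomes 6 and 8 stood low as a whole in both KO libraries. Among genes with at least 10 CPM, the median log2 fold change (KO over WT) was -0.55 over 489 genes of chromosome 6 and -0.58 over 595 of chromosome 8, against 0.02 over all entries tested. On chromosome 6, 402 of these genes (82.2%) lay below 0, and on chromosome 8, 499 (83.9%). When each chromosome was divided into 8 stretches with like numbers of genes, every stretch of chromosome 6 had a median between -0.74 and -0.48, and every stretch of chromosome 8 between -0.70 and -0.42. The WT libraries did not stand apart on these chromosomes. Relative to the mean of 4 libraries of Ythdc1 conditional knockout (cKO) ESCs under DMSO, chromosome 6 had medians of -0.50 and -0.49 in KO, 0.01 and 0.02 in WT, and -0.03 to 0.02 in the other 18 libraries. For chromosome 8 these were -0.53 and -0.52 in KO, -0.04 and -0.04 in WT, and -0.08 to 0.03 in the others. The X chromosome lay the other way, with a median of 0.24 over 332 genes. By library its medians were 0.29 and 0.32 in KO, 0.06 and 0.03 in WT, and -0.18 to 0.03 in the others. DNA was not measured, and the copy number of these chromosomes was not tested. Where members of a gene list on these chromosomes bear on its counts, the counts are also given off chromosomes 6 and 8, from a fit on the remaining entries alone.

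**Figure D1:**
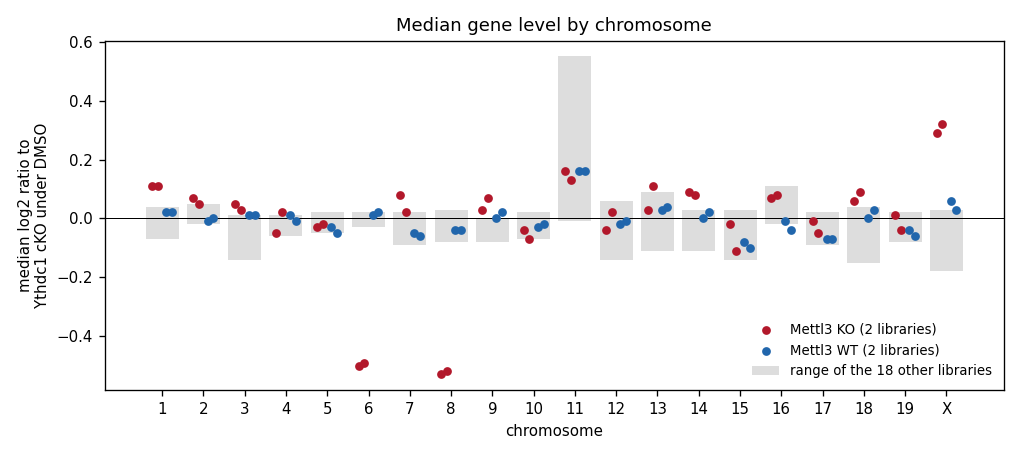
Median log2 ratio of genes by chromosome in the 2 Mettl3 KO (red) and 2 WT (blue) libraries, relative to the mean of the 4 Ythdc1 cKO libraries under DMSO, for genes with at least 10 CPM. Grey bars span the 18 other libraries. Both KO libraries lie near -0.5 on chromosomes 6 and 8 and near 0.3 on X, outside the bars, while the WT libraries lie near 0 on all 3.

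By edgeR's quasi-likelihood test, 7492 of 23977 genes and repeat families passed at an adjusted p under 0.05 (31.2%), 3928 higher in KO (16.4%) and 3564 lower (14.9%), the shares against which each list's counts are read. Among protein-coding genes, which make up most lists, 3143 of 15138 were higher and 2871 lower, larger shares than over all entries. Of the 7492, 1800 were at least 2-fold higher (7.51%) and 1098 at least 2-fold lower (4.58%). The number depended on the WT libraries: 351 passed without WT replicate 1 and 1928 without WT replicate 2, and all of the 351 and 1920 of the 1928 were among the 7492. In these fits 1 WT library stands alone and is assumed to vary like the KO pair. Where a KO library is left out, the other KO library is assumed to vary like the WT pair, whose replicates differed less, so a call gained there rests on that assumption. Of the 7492, 7485 and 7479 could be tested in these fits, and each kept its sign. Among genes given below by library, those that passed had KO and WT values that did not overlap. Of the 3536 lower genes placed on a chromosome, 960 (27.1%) lay on chromosome 6 or 8, which hold 10.3% of the genes tested. Of the 3812 higher genes, 155 (4.07%) lay there. With both chromosomes left out, 3425 of 21626 entries passed as higher (15.8%) and 2891 as lower (13.4%). Lower calls made up 435 of the 1172 genes tested on chromosome 6 (37.1%, 33 without WT replicate 1 and 160 without WT replicate 2) and 525 of 1175 on chromosome 8 (44.7%, 29 and 212).

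The Mettl3 transcript itself did not pass. Mettl3 (chromosome 14, 52294841 to 52305128, minus strand of mm10) had 15.6 and 30.4 CPM in KO libraries, against 30.6 and 31.7 CPM in WT libraries (log2 fold change -0.44, SE 0.245, adjusted p = 0.207). KO replicate 2 lay next to the WT libraries, and KO replicate 1 was near 50% of them; without KO replicate 2 the log2 fold change was -1.02 and passed (adjusted p = 1.39e-11), and without KO replicate 1 it was -0.04 and did not (adjusted p = 0.817). The lone KO library is there assumed to vary like the WT pair. How the gene was disrupted is not stated, and exons outside a deletion also give counts, so the level does not check the label. Calls among other genes of the m6A machinery went both ways. Over all entries 16.4% rose and 14.9% fell, and of 15138 protein-coding genes 3143 rose and 2871 fell. Whether the 2 lists below differ from these shares was not tested. Of 13 writer subunits and erasers tested, 4 rose and 1 fell (0 and 0 without WT replicate 1, 2 and 0 without WT replicate 2, 4 and 3 without KO replicate 1, 4 and 6 without KO replicate 2, 4 and 4 of 12 off chromosomes 6 and 8), with a median log2 fold change of -0.13. Wtap, the subunit that holds the writer in nuclear speckles, had 108 and 115 CPM in KO libraries, against 53.7 and 56.3 CPM in WT libraries (log2 fold change 1.02, SE 0.0907, adjusted p = 8.02e-05). Virma, the scaffold of the complex, had 101 and 107 CPM in KO libraries, against 63.5 and 65.4 CPM in WT libraries (0.69). For both genes the groups were far apart next to the spread within them. Cbll1, a ubiquitin ligase of the complex (0.63), and Rbm15, which brings the complex to RNA (0.46), also rose, while Mettl5, which methylates ribosomal RNA, fell (-0.52). Mettl14 (-0.39, adjusted p = 0.0615) and the demethylases Alkbh5 (-0.25, adjusted p = 0.0735) and Fto (-0.26, adjusted p = 0.0518) did not pass. With chromosomes 6 and 8 left out, Mettl14, Alkbh5 and Mettl16, a separate methyltransferase, passed as lower (adjusted p = 0.0447, 0.0451 and 0.0431). Of 13 m6A readers, 5 rose and 2 fell (1 and 0 without WT replicate 1, 3 and 0 without WT replicate 2, 6 and 4 without KO replicate 1, 6 and 4 without KO replicate 2), with a median of 0.11. Ythdf2 had 152 and 157 CPM in KO libraries, against 63.6 and 66.8 CPM in WT libraries (log2 fold change 1.24, SE 0.0846, adjusted p = 2.37e-05). Ythdf1 (0.78) and Ythdf3 (0.43), its cytoplasmic paralogs, rose as well, as did the nuclear reader Ythdc1 (145 and 165 CPM in KO, against 86.4 and 88.7 CPM in WT). Hnrnpa2b1, an RNA-binding protein proposed as a nuclear m6A reader, fell (-0.41); it lies on chromosome 6. Without WT replicate 1, Ythdf2 alone of these still passed. Without WT replicate 2, Cbll1, Rbm15, Mettl5, Ythdf3 and Hnrnpa2b1 did not pass. Fto passed when KO replicate 1 was left out. Mettl14, Alkbh5 and Fto passed when KO replicate 2 was left out.

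Fat2 and Kbtbd11 were among the largest rises of well expressed genes, and Upp1, Sfmbt2 and Trh had the largest falls. Fat2, an atypical cadherin (chromosome 11, 55250609 to 55336564, minus strand), had 115 and 163 CPM in KO libraries, against 5.96 and 7.3 CPM in WT libraries (log2 fold change 4.38, SE 0.186, adjusted p = 2.87e-06), and 1.23 to 22.5 CPM in the other 18 libraries. The KO libraries lay above every other library of the study. Sh3bp4, an adaptor of endocytosis (155 and 141 CPM in KO, against 32.4 and 33.8 CPM in WT), Stard8, a GTPase-activating protein (2.29), Ercc4, a nuclease subunit of DNA repair (2.08), Gprc5b, an orphan receptor (2.04), and A4galt, which makes the glycolipid Gb3 (2.01), were higher too, as were Kbtbd11 (2.89), Zfp936 (2.10) and Radil (1.95). Upp1, uridine phosphorylase (chromosome 11, 9118103 to 9136170, plus strand), had 13.9 and 14.3 CPM in KO libraries, against 130.2 and 134 CPM in WT libraries (log2 fold change -3.23, SE 0.099, adjusted p = 7.06e-07), and 20.5 to 228 CPM in the other 18 libraries. Trh, the precursor of thyrotropin-releasing hormone (60.9 and 42.6 CPM in KO, against 432 and 378 CPM in WT), Tmsb10, an actin-binding thymosin (72 and 56.7 CPM in KO, against 281 and 232 CPM in WT), and the keratin Krt19 (-2.36) were lower. Dnah8, a dynein heavy chain of cilia and flagella (58.2 and 73.6 CPM in KO, against 247 and 265 CPM in WT), fell as well. Trh and Tmsb10 lie on chromosome 6. The spread within groups was small next to these differences except for Krt19, where KO replicate 1 had nearly 2 times the level of KO replicate 2. With WT replicate 1 left out, Krt19 no longer passed.

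Among genes with lower levels, several were at 0 counts in WT. Their folds are lower bounds, against a floor of 3 counts over both WT libraries. Psg26 and Psg28, pregnancy-specific glycoproteins of the placenta, were at least 58.9-fold and 28-fold higher. Vmn1r46, a vomeronasal receptor, had 11.7 and 7.89 CPM in KO libraries, against 0 and 0 CPM in WT libraries, at least 172-fold higher, and 0 to 1.07 CPM in the other 18 libraries. The olfactory receptors Olfr1353 and Olfr477 were at least 33.6-fold and 24.4-fold higher, and Olfr45 had 21 and 37 counts in KO, against 0 and 0 in WT. Cbx8, a chromodomain subunit of Polycomb complex PRC1, had 1.43 and 1.65 CPM in KO libraries, against 0 and 0 CPM in WT libraries, at least 27-fold higher. Hhip, an inhibitor that binds Hedgehog ligands, had 22.1 and 23 CPM in KO libraries, against 0.98 and 0.496 CPM in WT libraries (log2 fold change 4.95, SE 0.247, adjusted p = 5.7e-06) although it lies on chromosome 8. Pof1b, an actin-binding protein of epithelia (5.34), Tmprss5, a membrane serine protease (5.59), Nlrp4a, an oocyte-type NLR gene (4.76), Pdzrn4 (5.64), Arsj, a sulfatase (44 and 20 counts in KO, against 0 and 2 in WT), and Trim75 (21 and 39 counts in KO, against 0 and 2 in WT) were among the other large rises. The largest falls were in Aipl1, a photoreceptor chaperone (2 and 0 counts in KO, against 54 and 41 in WT), the noncoding RNA Halr1 next to the Hoxa cluster (0.338 and 0.823 CPM in KO, against 15.4 and 14.9 CPM in WT), and Pla2g1b, a secreted phospholipase (0.826 and 2.06 CPM in KO, against 35.8 and 30.7 CPM in WT). Platr15, a noncoding RNA of pluripotent cells (-4.49), Hydin, a component of motile cilia (-3.98), Actc1, cardiac actin (-3.67), Plvap, an endothelial protein (-3.44), Klk1, a kallikrein (-3.45), Atp10b, a lipid flippase (-4.14), Fam19a4 (-4.12) and Wdr17 (-3.70) followed. None of the groups overlapped, since the choice of these genes asked for that. Psg28, Olfr1353, Olfr477, Olfr45, Cbx8, Arsj, Trim75, Aipl1, Hydin, Actc1, Plvap and Atp10b missed the threshold without WT replicate 1. Actc1 did not pass when WT replicate 2 was left out.

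**Figure D2:**
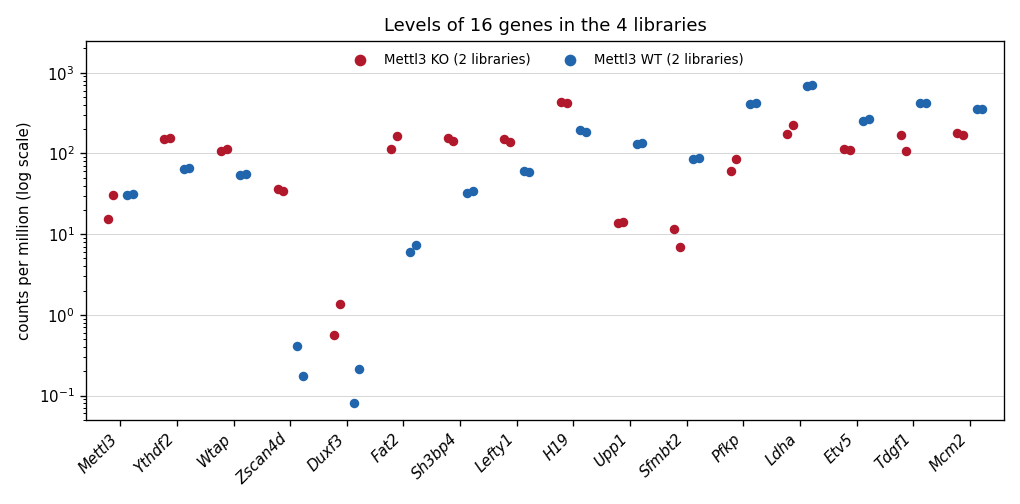
Levels of 16 genes in CPM (log axis) in the 2 Mettl3 KO (red) and 2 Mettl3 WT (blue) libraries, 1 point per library. Fat2, Sh3bp4, Ythdf2, Wtap, Lefty1, H19, Zscan4d and Duxf3 are higher in both KO libraries, and Upp1, Sfmbt2, Pfkp, Ldha, Etv5, Tdgf1 and Mcm2 lower, while for Mettl3 KO replicate 2 (30.4) lies next to WT (30.6 and 31.7).

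Most genes of glycolysis and of the hypoxia response fell. These enzymes turn glucose into pyruvate and lactate, and many of their genes carry binding sites of the factor HIF1, whose core is written ACGTG in its most used form, near their start. Among 35 of the 41 listed genes that have a promoter window in RefSeq (250 bases before to 50 after a start, build GRCm38.p6), 25 (71.4%) held ACGTG on either strand, as did 29 of their 54 windows (53.7%), against 19.6% of all 32851 windows of the same length. A match is a run of letters and not a measured binding site. Among the 25 are Hk1, which rose, and Ak4, Car9, Mxi1, P4ha2, Pdk3, Pfkfb3, Pfkm and Vegfa, which did not pass. A match was thus not confined to genes that fell. Whether falls were more frequent with a match than without was not tested. The windows of Ldha (chr7:46845554-46845853, plus strand) and Bnip3 (chr7:138909457-138909756, minus strand), genes of lactate production and of mitophagy that both fell in KO, are given 5′ to 3′, with ACGTG and its complement in capitals.
Ldha: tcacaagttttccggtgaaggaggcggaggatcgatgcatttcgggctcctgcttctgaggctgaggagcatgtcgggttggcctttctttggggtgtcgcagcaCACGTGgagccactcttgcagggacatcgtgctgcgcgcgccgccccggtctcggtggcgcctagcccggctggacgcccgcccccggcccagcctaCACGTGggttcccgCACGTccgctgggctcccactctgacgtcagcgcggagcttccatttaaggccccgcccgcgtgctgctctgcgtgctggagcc
Bnip3: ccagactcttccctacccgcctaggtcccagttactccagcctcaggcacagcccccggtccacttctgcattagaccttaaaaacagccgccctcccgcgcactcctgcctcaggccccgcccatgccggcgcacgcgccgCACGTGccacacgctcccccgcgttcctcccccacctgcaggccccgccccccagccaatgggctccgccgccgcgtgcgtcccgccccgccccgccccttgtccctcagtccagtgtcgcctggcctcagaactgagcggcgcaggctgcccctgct

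Of 41 glycolysis and hypoxia genes tested, 1 rose and 31 fell (0 and 15 without WT replicate 1, 0 and 24 without WT replicate 2, 2 and 30 without KO replicate 1), against 14.9% of all entries that fell, and the list's median log2 fold change was -1.03, against 0.02 over all entries. The 8 members on chromosomes 6 and 8 all fell, and of the 33 off chromosomes 6 and 8, 0 rose and 23 fell, with a median of -1.05. The summed level of the list was 6375 and 6867 CPM in KO, and 15379.9 and 15711 CPM in WT. Pfkp, the platelet isoform of phosphofructokinase (chromosome 13, 6579768 to 6648777, minus strand), had 60.1 and 86.1 CPM in KO libraries, against 409.8 and 426 CPM in WT libraries (log2 fold change -2.52, SE 0.147, adjusted p = 1.31e-05). Ldha, lactate dehydrogenase A, had 173 and 228 CPM in KO libraries, against 679 and 712 CPM in WT libraries (log2 fold change -1.79, SE 0.118, adjusted p = 2.17e-05). In each of them both KO libraries stood far below both WT libraries. Enzymes of nearly every step were lower: Hk2, hexokinase (-0.71), Gpi1, glucose-6-phosphate isomerase (-1.01), Pfkl, the liver phosphofructokinase (-1.14), Aldoa and Aldoc, aldolases (-1.29 and -1.41), Tpi1, triose phosphate isomerase (-1.83), Gapdh (-1.32), Pgk1 (-1.09), Pgam1 (-0.80), Eno1, enolase (-1.39) and Pkm, pyruvate kinase (-1.25). Gapdh, often used as a reference gene, had 1354 and 1406 CPM in KO libraries, against 3400.0 and 3477 CPM in WT libraries. It lies on chromosome 6, as do Hk2, Tpi1 and Slc2a3, and Egln1 lies on chromosome 8. The medians of these chromosomes were -0.55 and -0.58 among genes with at least 10 CPM. The glucose transporters Slc2a1 (-1.29) and Slc2a3 (-1.05), the lactate transporter Slc16a3 (-1.03) and Pdk1, which limits entry of pyruvate into mitochondria (-1.11), fell too. Of the hypoxia response, Ndufa4l2, a mitochondrial protein, had 0.526 and 1.2 CPM in KO libraries, against 10.6 and 10.6 CPM in WT libraries (log2 fold change -3.61, SE 0.31, adjusted p = 6.82e-05). Ndrg1 (4.36 and 5.35 CPM in KO, against 23.6 and 20.5 CPM in WT) and Bnip3 (28.7 and 48.1 CPM in KO, against 99.6 and 107 CPM in WT) were also low in both KO libraries. Epas1, which encodes HIF2 alpha, fell by 1.58 and Hif1a by 0.34 on the log2 scale, together with the prolyl hydroxylases Egln1 (-0.36) and Egln3 (-0.61). Hk1, the other main hexokinase, rose (0.31), and Vegfa (-0.07, adjusted p = 0.686), Car9 (0.33, adjusted p = 0.396) and Pfkfb3 (-0.07, adjusted p = 0.753), other genes known to respond to hypoxia, did not pass. Fam162a, a mitochondrial protein gene outside the list that is known to respond to hypoxia, had 13.9 and 16.6 CPM in KO, against 64.9 and 63.9 CPM in WT. Leaving out WT replicate 1 took Hk2, Gpi1, Pgk1, Pgam1, Slc16a3, Bnip3, Hif1a, Egln1, Egln3 and Hk1 out of the calls. Hif1a, Egln1, Egln3 and Hk1 lost their calls without WT replicate 2. With KO replicate 1 left out, Egln1 no longer passed.

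Sterol synthesis genes were lower as well. Of 25 tested, 3 rose and 18 fell (0 and 2 without WT replicate 1, 0 and 10 without WT replicate 2), against 16.4% and 14.9% of all entries, and the median was -0.52; of the 23 off chromosomes 6 and 8, 3 rose and 16 fell. Msmo1, sterol C4-methyl oxidase, had 49.5 and 55.9 CPM in KO libraries, against 128 and 138 CPM in WT libraries (log2 fold change -1.33, SE 0.0978, adjusted p = 3.32e-05), and Mvd, which decarboxylates mevalonate pyrophosphate, had 14.9 and 11.7 CPM in KO libraries, against 37.1 and 36 CPM in WT libraries (log2 fold change -1.46, SE 0.138, adjusted p = 0.000106). Both lie on chromosome 8. Off it, Lss, lanosterol synthase, had 58.1 and 60.3 CPM in KO libraries, against 116 and 124 CPM in WT libraries (log2 fold change -1.02, SE 0.0891, adjusted p = 7.67e-05), and Idi1 (23 and 24.2 CPM in KO, against 48.7 and 45.6 CPM in WT), Cyp51 (-0.97) and Fdps (-0.85) were lower too. Srebf2, the transcription factor of the pathway, fell by 0.38 on the log2 scale. Ebp (0.59) and Sc5d (0.37), later enzymes of the pathway, rose. TCACNCCAC, a form of the sterol response element, stood on either strand in 1 of 20 promoter windows of 17 listed genes, that of Hmgcs1, and in 1.24% of all windows. Of 24 fatty acid and lipid genes, 1 rose and 12 fell (0 and 0 without WT replicate 1, 1 and 1 without WT replicate 2, 2 and 13 without KO replicate 1, 2 and 13 without KO replicate 2), with a median of -0.24. Fabp5, a fatty acid carrier (3.49 and 4.45 CPM in KO, against 12.7 and 13 CPM in WT), Scd3, a desaturase (-1.26), Dgat2, which makes triglyceride (-1.19), and Acly, which supplies cytosolic acetyl-CoA (-0.54), were lower, and Me1, malic enzyme, was higher (1.00). Fasn, fatty acid synthase, did not pass (-0.20, adjusted p = 0.233). Msmo1 and Lss still passed without WT replicate 1, and the others named here did not. With WT replicate 2 left out, Srebf2, Ebp, Sc5d, Scd3, Dgat2 and Acly no longer passed. Fasn passed when KO replicate 1 was left out.

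Genes of DNA replication and the cell cycle were mostly lower by less than 2-fold. Of 44 tested, 1 rose and 26 fell (0 and 2 without WT replicate 1, 0 and 7 without WT replicate 2, 2 and 28 without KO replicate 1, 3 and 27 without KO replicate 2), against 16.4% and 14.9% of all entries, and the median was -0.34; of the 38 off chromosomes 6 and 8, 1 rose and 21 fell. Mcm2, a subunit of the replicative helicase, had 178 and 167 CPM in KO libraries, against 359.7 and 353 CPM in WT libraries (log2 fold change -1.05, SE 0.0756, adjusted p = 3.13e-05), and Mcm5 fell by 0.88 on the log2 scale. They lie on chromosomes 6 and 8, but Mcm3 (-0.36), Mcm4 (-0.45), Mcm6 (-0.40) and Mcm7 (-0.41), on other chromosomes, fell too. Cyclins Ccna2 (108 and 123 CPM in KO, against 201 and 197 CPM in WT) and Ccnb1 (-0.67), Rrm2, which makes deoxynucleotides (-0.66), and Pcna, the polymerase clamp (-0.66), were lower. The largest fall in the list was that of an inhibitor of the cycle, Cdkn1b, which encodes p27 and lies on chromosome 6 (14.1 and 15.6 CPM in KO, against 44.9 and 44.5 CPM in WT). E2f2, an S phase transcription factor, fell by 1.07, and Cdk6, a G1 kinase, rose (0.66). Of 32 ribosome biogenesis genes, 5 rose and 13 fell (0 and 0 without WT replicate 1, 1 and 7 without WT replicate 2, 5 and 12 of 29 off chromosomes 6 and 8), with a median of -0.19. Polr1b, the second largest subunit of RNA polymerase I, had 153 and 134 CPM in KO libraries, against 65.5 and 65.7 CPM in WT libraries (log2 fold change 1.13, SE 0.0947, adjusted p = 6.06e-05), the other way from Polr1a (-0.38) and Polr1c (-0.30). Rrp9, Bop1 and Nle1, assembly factors, had -0.80, -0.80 and -0.77. Of 44 nuclear genes of the respiratory chain, 3 rose and 16 fell (0 and 1 without WT replicate 1, 0 and 3 without WT replicate 2, 3 and 14 of 40 off chromosomes 6 and 8), with a median of -0.13. Cycs, cytochrome c (20.4 and 23.3 CPM in KO, against 59.3 and 52 CPM in WT), Ndufa9 (-0.88) and Ndufa4 (-0.74) led the falls, and all 3 lie on chromosome 6. Sdhb, a subunit of succinate dehydrogenase on chromosome 4, fell by 0.72. Of 14 mitochondrially encoded genes, 3 rose and 1 fell (0 and 0 without WT replicate 1, 0 and 0 without WT replicate 2, 8 and 2 without KO replicate 1, 3 and 4 without KO replicate 2), with a median of 0.18: mt-Nd1 (0.60), mt-Nd3 (0.50) and mt-Nd4 (0.46), subunits of complex I, were higher, and mt-Co1, of complex IV, was lower (-0.45). When WT replicate 1 was left out, the ones of these past the threshold were Mcm2, Cdkn1b and Cycs. E2f2, Mcm3, Mcm4, Mcm6, Mcm7, Rrm2, Cdk6, Polr1a, Polr1c, Ndufa4, mt-Nd1, mt-Nd3, mt-Nd4 and mt-Co1 missed the threshold without WT replicate 2. Leaving out KO replicate 2 took mt-Nd3 out of the calls.

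Genes that process and degrade RNA leaned lower. Of 40 SR, hnRNP and polyadenylation genes, 5 rose and 21 fell (0 and 1 without WT replicate 1, 1 and 4 without WT replicate 2, 5 and 18 of 37 off chromosomes 6 and 8), with a median of -0.24. Nudt21, a subunit of the cleavage factor CFIm on chromosome 8, had 52.5 and 52.7 CPM in KO libraries, against 104 and 107 CPM in WT libraries (log2 fold change -1.01, SE 0.0881, adjusted p = 7.64e-05). Clp1, of the companion cleavage factor CFIIm, moved the other way, with 32.6 and 29.4 CPM in KO libraries, against 12.9 and 15.1 CPM in WT libraries (log2 fold change 1.14, SE 0.131, adjusted p = 0.000269). Tra2a, a splicing activator (-0.80), and Hnrnpf (-0.72), both on chromosome 6, were lower, as was the splicing repressor Ptbp1 (-0.57), and Cstf1, a cleavage factor, was higher (0.65). Of 32 nuclear exosome and RNA decay genes, 2 rose and 14 fell (0 and 0 without WT replicate 1, 0 and 2 without WT replicate 2, 4 and 15 without KO replicate 1, 4 and 19 without KO replicate 2, 2 and 12 of 28 off chromosomes 6 and 8), with a median of -0.22. Exosc10, a nuclease of the nuclear exosome, had 45.2 and 40.9 CPM in KO libraries, against 82.7 and 75.3 CPM in WT libraries (log2 fold change -0.88, SE 0.103, adjusted p = 0.000297). Cnot1, the scaffold of the CCR4-NOT deadenylase (-0.80), and Upf1, the helicase of nonsense-mediated decay (-0.64), fell and lie on chromosome 8, and Papolg, a poly(A) polymerase, fell off it (-0.60). Of 26 nuclear long noncoding RNAs, 4 rose and 9 fell (1 and 0 without WT replicate 1, 1 and 1 without WT replicate 2), with a median of -0.26. Lncenc1, an RNA of naive ESCs (47.4 and 92.5 CPM in KO, against 157 and 159 CPM in WT), and Tug1 (-0.76) were lower, and Malat1, a speckle RNA that is heavily methylated, was higher (5622 and 5491 CPM in KO, against 4382 and 4492 CPM in WT). Of 38 heterochromatin and retroelement silencing genes, 5 rose and 15 fell (0 and 1 without WT replicate 1, 1 and 4 without WT replicate 2, 11 and 17 without KO replicate 1, 10 and 20 without KO replicate 2, 3 and 13 of 33 off chromosomes 6 and 8), with a median of -0.15. Ezh2, the methyltransferase of PRC2 (66.5 and 72 CPM in KO, against 160.3 and 149.9 CPM in WT), and Cbx3, heterochromatin protein 1 gamma (-0.91), lie on chromosome 6. Dnmt3l (-1.01) and Dnmt3b (-0.97), of the DNA methylation machinery, fell on chromosomes 10 and 2, and Setdb1, which silences retroviruses, rose (165 and 165 CPM in KO, against 101 and 108 CPM in WT). Nudt21 and Ezh2 kept their calls without WT replicate 1, unlike the others named here. Leaving out WT replicate 2 took Tra2a, Cstf1, Upf1, Papolg, Lncenc1, Malat1, Dnmt3l and Dnmt3b out of the calls.

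**Figure D3:**
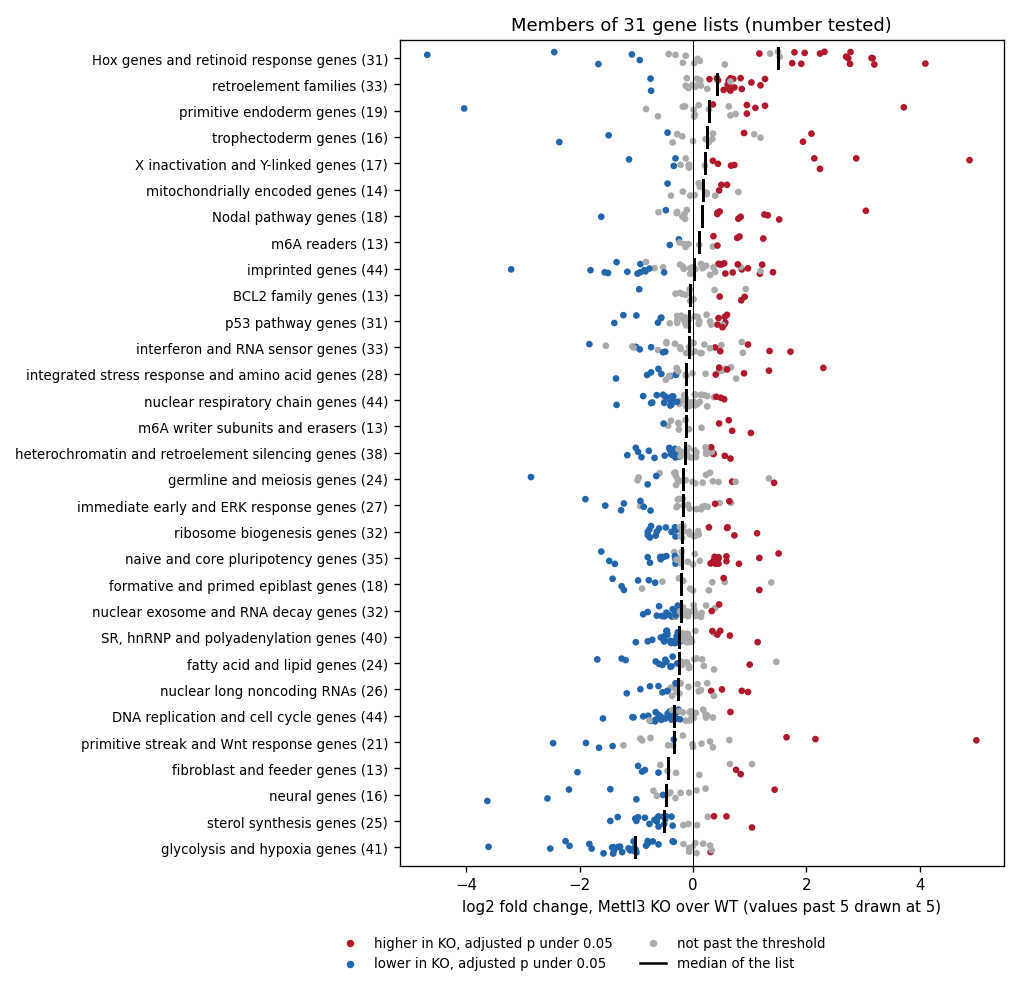
Log2 fold changes (KO over WT) of the tested members of 31 gene lists, 1 point per gene, with the list median as a black bar. Red points were higher and blue points lower in KO at an adjusted p under 0.05, and grey points did not pass. The Zscan4 cluster (median 6.70) and the other two-cell genes (4.75) are not drawn. Of the lists drawn, glycolysis and hypoxia genes have the lowest median (-1.03) and Hox and retinoid response genes the highest (1.50).

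Most genes of the two-cell embryo were near 0 in WT and present in KO. The Zscan4 genes, which maintain telomeres, and the targets of the transcription factor DUX are active in that embryo and in rare ESCs. The RefSeq windows of Zscan4c (chr7:11005495-11005794, plus strand) and Zscan4d (chr7:11166099-11166398, minus strand) are given below. The 4 RefSeq windows of the cluster were 95.3 to 99.3% identical. They lie mostly before the start, and the transcripts were not compared, so the split of reads between copies is uncertain. All 4 held the core of the DUX motif, TGATT and ATCA with any 2 bases between them, on one strand or the other, as did 68 of all 32851 windows (0.207%) and 0 of the 19 windows of 17 other listed genes of the two-cell stage. Capitals mark it, here read on the opposite strand.
Zscan4c: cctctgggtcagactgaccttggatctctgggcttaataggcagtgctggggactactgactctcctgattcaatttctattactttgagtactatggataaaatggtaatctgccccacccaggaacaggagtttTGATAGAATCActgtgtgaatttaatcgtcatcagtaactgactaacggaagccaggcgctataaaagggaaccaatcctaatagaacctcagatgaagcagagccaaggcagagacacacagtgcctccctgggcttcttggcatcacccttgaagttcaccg
Zscan4d: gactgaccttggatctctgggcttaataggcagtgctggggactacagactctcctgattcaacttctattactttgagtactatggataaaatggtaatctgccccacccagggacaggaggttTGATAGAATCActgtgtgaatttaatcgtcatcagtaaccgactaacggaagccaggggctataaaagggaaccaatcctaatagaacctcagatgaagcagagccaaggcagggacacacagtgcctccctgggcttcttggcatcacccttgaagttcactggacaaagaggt

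All 9 Zscan4 genes and pseudogenes rose, also without any 1 library, and their summed level was 228 and 251 CPM in KO, against 2.98 and 2.38 CPM in WT. Zscan4d (chromosome 7, 11161374 to 11166159, minus strand) had 36.4 and 34.4 CPM in KO libraries, against 0.408 and 0.177 CPM in WT libraries, and Zscan4c had 34.1 and 38.2 CPM in KO libraries, against 0.49 and 0.213 CPM in WT libraries. Of 31 other genes of that stage that were tested, 25 rose and 0 fell (12 and 0 without WT replicate 1), against 16.4% and 14.9% of all entries, and the median was 4.75, or 4.63 with the 4 genes at 0 counts in WT set to their bound. With 0 counts in WT, AF067061, Usp17ld and Gm2022 were at least 50.7-fold, 45.4-fold and 25.7-fold higher against the floor. Genes at 0 counts in WT passed the filter on low counts only through the KO libraries, so they could be called only as higher. Duxf3, the mouse Dux gene, stood at 0.563 and 1.35 CPM in KO, against 0.0817 and 0.213 CPM in WT (log2 fold change 2.63, SE 0.719, adjusted p = 0.021). Ddit4l, an inhibitor of mTOR signalling, had 14.4 and 13.6 CPM in KO libraries, against 4.41 and 3.86 CPM in WT libraries (log2 fold change 1.76, SE 0.17, adjusted p = 0.000116), the highest level in KO among those that rose. The cleavage-stage genes Trim43a (1.13, adjusted p = 0.0869), Trim43b (0.58, adjusted p = 0.207) and Obox6 (1.16, adjusted p = 0.165) did not pass. Of 11 listed genes at too few counts to test, 8 had counts in at least 1 KO library and 1, Spz1, had counts in WT. Of 33 retroelement families, 17 rose and 2 fell (2 and 0 without WT replicate 1, 6 and 2 without WT replicate 2, 22 and 6 without KO replicate 1, 18 and 6 without KO replicate 2), against 10.7% and 2.04% of all 1028 repeat families, and the median was 0.42. MERVL-int, the retrovirus active at the same stage, had 645 and 685 CPM in KO libraries, against 321 and 332 CPM in WT libraries (log2 fold change 1.03, SE 0.0711, adjusted p = 2.65e-05). MMVL30-int, a retrovirus-like element (191 and 78 CPM in KO, against 55.8 and 56.1 CPM in WT), differed more between the KO replicates than any other family of the list. MMETn-int (1229 and 1313 CPM in KO, against 2108 and 2174 CPM in WT) and ETnERV-int (-0.74) went the other way. The 33 families also count the satellite repeats GSAT_MM, among the 17 that rose, and SYNREP_MM, which are not retroelements. Gm2022, Duxf3, MMVL30-int, MMETn-int and ETnERV-int lost their calls without WT replicate 1. Without WT replicate 2, Duxf3 and MMVL30-int did not pass. Duxf3 did not pass when KO replicate 2 was left out. Trim43a and Trim43b passed when KO replicate 1 was left out.

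Pluripotency genes moved in both directions. Of 35 naive and core genes, 13 rose and 12 fell (2 and 0 without WT replicate 1, 2 and 4 without WT replicate 2, 8 and 11 of 30 off chromosomes 6 and 8), with a median of -0.20. Pou5f1 (242 and 215 CPM in KO, against 206 and 213 CPM in WT, adjusted p = 0.308) and Sox2 (53.2 and 66.8 CPM in KO, against 67.6 and 70.8 CPM in WT, adjusted p = 0.224) did not pass. Tbx3, a factor of naive cells, had 45.3 and 39.5 CPM in KO libraries, against 15.4 and 14.5 CPM in WT libraries (log2 fold change 1.51, SE 0.122, adjusted p = 5.1e-05), and Klf2, another, had 92.6 and 98.1 CPM in KO libraries, against 44.2 and 40.7 CPM in WT libraries although it lies on chromosome 8. Nanog was higher in both KO libraries (265 and 295 CPM in KO, against 209.9 and 199.6 CPM in WT). Gbx2 (2.7 and 1.87 CPM in KO, against 6.54 and 6.24 CPM in WT) and Socs3 (9.99 and 6.47 CPM in KO, against 19.8 and 23.2 CPM in WT), genes downstream of LIF and STAT3, were lower, and so were Stat3 (-0.47), Utf1 (-0.76) and Dppa5a (-0.57). Among 18 genes of the formative and primed epiblast, 2 rose and 6 fell (0 and 1 without WT replicate 1, 0 and 4 without WT replicate 2, 5 and 6 without KO replicate 2), with a median of -0.21: Etv5, a target of FGF signalling (114 and 109 CPM in KO, against 252 and 267 CPM in WT), Lef1, a transcription factor of the Wnt pathway (-1.42), Tcf15 (-1.26), Dnmt3b and Dnmt3a (-0.78) and Otx2 (-0.67) were lower, and Foxd3 was higher (1.17). Fgf5, the marker gene of the primed state, had 7.48 CPM in KO replicate 1 and 1.57 CPM in KO replicate 2, against 2.04 and 1.45 CPM in WT, and did not pass. Of 27 immediate early and ERK response genes, 2 rose and 7 fell (0 and 1 without WT replicate 1, 0 and 5 without WT replicate 2, 1 and 13 without KO replicate 1, 8 and 7 without KO replicate 2, 2 and 6 of 23 off chromosomes 6 and 8), with a median of -0.18. Spry2, a feedback inhibitor of receptor tyrosine kinases, had 19.7 and 13.1 CPM in KO libraries, against 47.8 and 48 CPM in WT libraries (log2 fold change -1.55, SE 0.172, adjusted p = 0.000239). Ier3 (-1.90), Ier2 (-1.27), Spry4 (-0.87) and Myc (-0.93) were lower as well, and the phosphatase Dusp5 was higher (0.64). Of the genes named here, Tbx3, Klf2 and Etv5 still passed without WT replicate 1. Nanog, Stat3, Dppa5a, Otx2, Foxd3, Dnmt3b, Myc and Dusp5 missed the threshold without WT replicate 2. Without KO replicate 1, Dusp5 did not pass. Pou5f1, Sox2 and Fgf5 passed when KO replicate 2 was left out.

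In the Nodal pathway, which uses TGF-beta type receptors and SMAD2 and SMAD3, the ligand Nodal and its inhibitors were higher and a co-receptor lower. Of 18 genes, 9 rose and 2 fell (1 and 0 without WT replicate 1, 6 and 1 without WT replicate 2, 9 and 6 without KO replicate 1, 9 and 4 without KO replicate 2), against 16.4% and 14.9% of all entries, and the median was 0.16. Nodal, the ligand, had 45.9 and 39.9 CPM in KO libraries, against 16.6 and 17.6 CPM in WT libraries (log2 fold change 1.32, SE 0.12, adjusted p = 8.87e-05). Lefty1, an inhibitor of it that is also its target, had 149 and 137 CPM in KO libraries, against 60.0 and 59.3 CPM in WT libraries (log2 fold change 1.26, SE 0.0887, adjusted p = 2.82e-05), and Lefty2 had 130.0 and 123 CPM in KO libraries, against 98.7 and 89.4 CPM in WT libraries (0.43). All 3 were higher in both KO libraries than in either WT library. The convertases that cut the NODAL precursor, Furin (90.6 and 67.5 CPM in KO, against 26.3 and 28.7 CPM in WT) and Pcsk6 (34.3 and 31.4 CPM in KO, against 18.4 and 19.2 CPM in WT), rose, as did the effectors Smad3 (0.84) and Smad2 (0.43) and the receptor Acvr2a (0.47). Of the co-receptors, Tdgf1, which encodes CRIPTO, had 167 and 106 CPM in KO libraries, against 418 and 422 CPM in WT libraries (log2 fold change -1.62, SE 0.17, adjusted p = 0.000171), and its low-level relative Cfc1 had 1.99 and 1.87 CPM in KO libraries, against 0.286 and 0.177 CPM in WT libraries. The receptor Acvr2b fell (-0.48), and Smad4 (-0.14, adjusted p = 0.302), Smad7 (-0.15, adjusted p = 0.395) and Foxh1 (-0.11, adjusted p = 0.74) did not pass. Lefty1 alone of the genes named here still passed without WT replicate 1. Leaving out WT replicate 2 took Lefty2, Smad2, Acvr2a and Acvr2b out of the calls. Smad7 and Foxh1 passed when KO replicate 1 was left out.

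Lineage genes were mostly at low levels. Of 31 Hox and retinoid response genes tested, out of 50 listed, 15 rose and 5 fell (1 and 1 without WT replicate 1, 2 and 2 without WT replicate 2, 13 and 2 of 23 off chromosomes 6 and 8), with a median of 1.50; the other 19 had too few counts to test. With no filter on low counts, 10 rose and 3 fell of 49, with a median of 0.55, and DESeq2 called 9 higher and 4 lower of the 31. Every Hoxc and Hoxd gene that passed was higher, for example Hoxd9 (1.54 and 1.65 CPM in KO, against 0.327 and 0.142 CPM in WT) and Hoxc13 (3.16 and 2.62 CPM in KO, against 0.654 and 0.993 CPM in WT), as was Meis2, a partner of HOX proteins (7.66 and 9.05 CPM in KO, against 1.51 and 1.06 CPM in WT). In the Hoxa cluster on chromosome 6, Hoxa9 (-2.45) fell with its neighbour Halr1, and Hoxa13 rose (1.91). Of 16 neural genes, 1 rose and 6 fell (0 and 1 without WT replicate 1, 0 and 4 without WT replicate 2, 0 and 9 without KO replicate 1), with a median of -0.48. Pax6, a regulator of neural progenitors, had 1.5 and 0.972 CPM in KO libraries, against 7.27 and 7.52 CPM in WT libraries (log2 fold change -2.57, SE 0.265, adjusted p = 0.000159), and Elavl3, a neuronal RNA-binding protein, had 4.51 and 4.83 CPM in KO libraries, against 23 and 19.6 CPM in WT libraries (log2 fold change -2.19, SE 0.159, adjusted p = 3.13e-05). Snap25, of synaptic vesicle fusion (-3.63), Stmn2, a tubulin-binding protein (51.8 and 35.8 CPM in KO, against 123 and 118 CPM in WT), and Tubb3, a neuronal tubulin (-1.00), were lower too, and Gap43, of growing axons, was higher (1.44). The 6 neural markers summed to 24.7 and 21.2 CPM in KO, and 59.7 and 56.8 CPM in WT. When WT replicate 1 was left out, the ones of these past the threshold were Meis2 and Elavl3. Hoxd9, Hoxa9, Hoxa13, Tubb3 and Gap43 lost their calls without WT replicate 2. Without KO replicate 1, Hoxa13 and Gap43 did not pass. With KO replicate 2 left out, Hoxa9 and Hoxa13 no longer passed.

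Of 19 primitive endoderm genes, 6 rose and 1 fell (0 and 1 without WT replicate 1, 6 and 2 without KO replicate 1, 4 and 1 of 16 off chromosomes 6 and 8), with a median of 0.28. The basement membrane collagens Col4a1 (93.5 and 78.4 CPM in KO, against 41 and 39.2 CPM in WT) and Col4a2 (1.27) rose although they lie on chromosome 8, and so did Sparc (0.95) and the endoderm factor Foxa2 (1.47 and 1.65 CPM in KO, against 0.0817 and 0.142 CPM in WT). Cubn, an endocytic receptor of that tissue, had 0.864 and 1.01 CPM in KO libraries, against 16.6 and 14.4 CPM in WT libraries (log2 fold change -4.04, SE 0.216, adjusted p = 8.54e-06), while its partner Lrp2 was higher (359.6 and 179 CPM in KO, against 143 and 135 CPM in WT). Gata4 (0.01, adjusted p = 0.982) and Gata6 (-0.62, adjusted p = 0.339), which define the lineage, did not pass, and the 6 markers summed to 7.44 and 8.27 CPM in KO and 6.82 and 6.59 CPM in WT. Of 16 trophectoderm genes, 3 rose and 3 fell (0 and 0 without WT replicate 1, 1 and 2 without WT replicate 2, 5 and 5 without KO replicate 1, 6 and 3 without KO replicate 2), with a median of 0.25: Hand1 (1.95 and 2.32 CPM in KO, against 0.694 and 0.319 CPM in WT), Gata3 (6.95 and 4.75 CPM in KO, against 1.51 and 1.52 CPM in WT) and Krt7 (0.90) were higher, and Bmp4, a signal to that lineage (-1.49), and Tead4 (-0.45) lower. Cdx2 did not pass (0.826 and 0.224 CPM in KO, against 0.98 and 0.319 CPM in WT). The trophectoderm markers, 6 genes of which Elf5 was at 0 in KO, summed to 21.2 and 20.8 CPM in KO and 12.6 and 9.79 CPM in WT. Of 21 primitive streak and Wnt response genes, 3 rose and 5 fell (0 and 0 without WT replicate 1, 1 and 2 without WT replicate 2, 5 and 9 without KO replicate 1, 3 and 3 of 19 off chromosomes 6 and 8), with a median of -0.34. T, or Brachyury, had 0.301 and 0.449 CPM in KO libraries, against 2.17 and 2.02 CPM in WT libraries (log2 fold change -2.47, SE 0.415, adjusted p = 0.00203), while Gsc, another gene of the early streak, had 0 counts in WT and was at least 12.2-fold higher. Wnt3 (-1.89) and the Wnt feedback gene Nkd1 (-1.66) were lower, and Snai1 (2.16) and Wnt5a (1.65) higher. The 5 streak markers, with Mesp1 at 0 in all 4 libraries, summed to 3.91 and 3.48 CPM in KO and 3.92 and 4.22 CPM in WT. Cubn alone of the genes named here still passed without WT replicate 1. Lrp2, Hand1, Krt7, Tead4, Gsc, Wnt3, Nkd1 and Snai1 missed the threshold without WT replicate 2.

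Of 13 fibroblast and feeder genes, 2 rose and 5 fell (0 and 0 without WT replicate 1, 0 and 1 without WT replicate 2, 4 and 5 without KO replicate 2), with a median of -0.45. Col1a2, a collagen gene on chromosome 6, was lower in both KO libraries and lowest in replicate 2 (6.12 and 0.86 CPM in KO, against 13.5 and 15.2 CPM in WT). Acta2 (31.4 and 14.4 CPM in KO, against 42 and 40.8 CPM in WT) and Tagln (41 and 18.1 CPM in KO, against 55.1 and 55.1 CPM in WT), of contractile fibres, were low mainly in KO replicate 2. Fn1, fibronectin, was lower in both (708 and 637 CPM in KO, against 1035 and 1016 CPM in WT). The 2 that rose were Col5a1, another collagen gene (62.5 and 34.6 CPM in KO, against 26.6 and 27.7 CPM in WT), and Fbn1 (0.76). Of 24 germline and meiosis genes, 2 rose and 3 fell (0 and 1 without WT replicate 1, 1 and 1 without WT replicate 2, 6 and 3 without KO replicate 1, 2 and 10 without KO replicate 2, 2 and 2 of 21 off chromosomes 6 and 8), against 16.4% and 14.9% of all entries, and the median was -0.18. Smc1b, a cohesin subunit of meiosis, had 2.78 and 4.45 CPM in KO libraries, against 24.3 and 28.2 CPM in WT libraries (log2 fold change -2.86, SE 0.21, adjusted p = 3.32e-05). Prdm1, which specifies germ cells, had 26.8 and 33.8 CPM in KO libraries, against 11.2 and 11.3 CPM in WT libraries (log2 fold change 1.43, SE 0.144, adjusted p = 0.000144), and Ddx4, a helicase of germ cells, was higher (0.69). Dazl did not pass (-0.13, adjusted p = 0.788). Without WT replicate 1, Smc1b alone of these still passed. Col1a2, Acta2, Tagln, Col5a1, Fbn1 and Ddx4 did not pass when WT replicate 2 was left out.

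Imprinted genes, which are read from the copy of 1 parent, moved in both directions. Of 44 tested, 12 rose and 13 fell (2 and 4 without WT replicate 1, 2 and 6 without WT replicate 2), with a median of 0.01, and of the 39 off chromosomes 6 and 8, 12 rose and 9 fell. Sfmbt2, a Polycomb-related gene on chromosome 2, had 11.6 and 6.88 CPM in KO libraries, against 84.1 and 87.2 CPM in WT libraries (log2 fold change -3.21, SE 0.198, adjusted p = 1.77e-05). In the cluster around H19 and Kcnq1ot1 on chromosome 7, H19 had 433 and 427 CPM in KO libraries, against 195 and 184 CPM in WT libraries (log2 fold change 1.18, SE 0.0739, adjusted p = 1.91e-05), Kcnq1ot1, the RNA that silences its neighbours, had 928 and 958 CPM in KO libraries, against 473 and 491 CPM in WT libraries (log2 fold change 0.97, SE 0.0666, adjusted p = 2.6e-05), and Kcnq1, the gene it lies within, rose by 1.22. Igf2, next to H19, did not pass (11.7 and 11 CPM in KO, against 9.56 and 10.6 CPM in WT). In the Dlk1 cluster on chromosome 12 the noncoding Meg3 (238 and 140.2 CPM in KO, against 359.6 and 359 CPM in WT) and Rian (280.3 and 193 CPM in KO, against 441 and 461 CPM in WT) were lower in both KO libraries and lowest in replicate 2. Mest (55.6 and 43.5 CPM in KO, against 139 and 143 CPM in WT), Peg10 (578 and 301 CPM in KO, against 1296 and 1289.6 CPM in WT), Sgce (-0.86) and Ppp1r9a (-1.16) fell and lie on chromosome 6. Nnat, a membrane protein of neural cells (-1.81), and Grb10, an inhibitor of growth signals (-0.84), fell off it. Airn (0.86) and the receptor gene it lies across, Igf2r (0.45), both rose, as did Magel2 (1.41), Ndn (0.79) and Plagl1 (0.70). Airn and Igf2r, and Kcnq1ot1 and Kcnq1, overlap on opposite strands, and the sources used here do not say whether counting used the strand. Sfmbt2, H19, Kcnq1ot1, Mest and Ppp1r9a still passed without WT replicate 1, and the others named here did not. When WT replicate 2 was left out, the ones of these past the threshold were Sfmbt2, H19, Kcnq1ot1, Mest, Peg10, Ppp1r9a and Nnat. Magel2 missed the threshold without KO replicate 1.

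Genes of the Y chromosome were mostly higher in KO. Kdm5d, a histone demethylase (chromosome Y, 897788 to 956786, plus strand), had 28.3 and 23.5 CPM in KO libraries, against 1.06 and 0.709 CPM in WT libraries (log2 fold change 4.88, SE 0.222, adjusted p = 3.75e-06), and 0.0456 to 2.18 CPM in the other 18 libraries. Uba1y, a ubiquitin-activating enzyme, had 19.7 and 20.9 CPM in KO libraries, against 2.25 and 3.23 CPM in WT libraries (log2 fold change 2.88, SE 0.192, adjusted p = 2.25e-05), and 0.794 to 7.28 CPM in the others. In both the KO libraries lay above all other libraries of the study. Zfy1 (2.24), Zfy2 (2.14) and Ddx3y (0.73) rose, Eif2s3y, a translation factor, fell (-0.34), and Uty did not pass (-0.22, adjusted p = 0.352). Of the 13 Y genes tested, 9 rose and 1 fell (3 and 0 without WT replicate 1, 6 and 0 without WT replicate 2). Of the list of 17 X inactivation and Y-linked genes, 8 rose and 3 fell (2 and 0 without WT replicate 1, 5 and 1 without WT replicate 2, 8 and 5 without KO replicate 2), with a median of 0.21. Xist, the RNA that silences an X chromosome, had 55.8 and 61.3 CPM in KO libraries, against 74.6 and 70.5 CPM in WT libraries (log2 fold change -0.31, SE 0.0969, adjusted p = 0.0372), and Ftx, a noncoding RNA of its locus, had 11.9 and 12 CPM in KO libraries, against 26.7 and 25.8 CPM in WT libraries (log2 fold change -1.13, SE 0.122, adjusted p = 0.000204). Rlim, a ubiquitin ligase that raises Xist, was higher (559 and 658 CPM in KO, against 376 and 391 CPM in WT), as were Kdm6a (0.44) and Kdm5c (0.35), the X-linked relatives of Uty and Kdm5d. On the X as a whole 227 of 749 genes rose (30.3%) and 70 fell (10 and 1 without WT replicate 1, 58 and 14 without WT replicate 2). Kdm5d and Uba1y kept their calls without WT replicate 1, unlike the others named here. Ddx3y, Eif2s3y, Xist, Kdm6a and Kdm5c lost their calls without WT replicate 2. Uty passed when KO replicate 2 was left out.

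Stress and signalling lists showed no common direction. Of 31 p53 pathway genes, 7 rose and 6 fell (0 and 0 without WT replicate 1, 0 and 3 without WT replicate 2, 6 and 12 without KO replicate 1, 6 and 3 of 28 off chromosomes 6 and 8), with a median of -0.07. Trp53 itself, which encodes p53, had 89.6 and 83.7 CPM in KO libraries, against 181 and 166 CPM in WT libraries (log2 fold change -1.00, SE 0.0886, adjusted p = 7.99e-05). Its targets Mdm2 (99.8 and 89.2 CPM in KO, against 64.1 and 64.6 CPM in WT), Phlda3 (0.60) and Btg2 (0.57) rose, Ccng2, a cyclin-like gene (-1.39), and Gadd45a, a damage response gene on chromosome 6 (-1.23), fell, and Cdkn1a did not pass (66.8 and 50.5 CPM in KO, against 48.1 and 46.9 CPM in WT, adjusted p = 0.113). Of 13 BCL2 family genes, 3 rose and 1 fell (0 and 0 without WT replicate 1, 0 and 1 without WT replicate 2, 3 and 3 without KO replicate 1, 3 and 0 of 11 off chromosomes 6 and 8), with a median of -0.05: the survival genes Bcl2l1 (73.8 and 51 CPM in KO, against 32.1 and 34.5 CPM in WT), Bcl2l2 (0.85) and Mcl1 (0.47) rose, and Bid, which promotes cell death and lies on chromosome 6, fell (-0.95). Of 28 integrated stress response and amino acid genes, 6 rose and 7 fell (0 and 1 without WT replicate 1, 1 and 2 without WT replicate 2, 7 and 11 without KO replicate 1, 9 and 12 without KO replicate 2, 5 and 7 of 24 off chromosomes 6 and 8), with a median of -0.13. Shmt2, of mitochondrial serine metabolism, had 37.6 and 39.5 CPM in KO libraries, against 98.3 and 99.8 CPM in WT libraries (log2 fold change -1.36, SE 0.0923, adjusted p = 2.37e-05), and Asns (-0.81), Phgdh (-0.61) and Psat1 (-0.56), which make asparagine and serine, were lower, while Cebpb (2.48 and 2.62 CPM in KO, against 0.572 and 0.461 CPM in WT) and Chac1 (1.34) were higher. Of 33 interferon and RNA sensor genes, 5 rose and 6 fell (0 and 0 without WT replicate 1, 1 and 2 without WT replicate 2, 7 and 14 without KO replicate 1, 9 and 8 without KO replicate 2, 5 and 6 of 30 off chromosomes 6 and 8), with a median of -0.07: Oasl1 (1.72) and Oas1a (1.35), which respond to double-stranded RNA, and Mavs, the adaptor of RNA sensors (34.2 and 34.9 CPM in KO, against 15.4 and 19.8 CPM in WT), rose, and Oas3 (-1.83) and Bst2, a restriction factor on chromosome 8 (-1.01), fell. The sensors Ifih1 (-0.47, adjusted p = 0.476) and Ddx58 (0.20, adjusted p = 0.267) did not pass. Without WT replicate 1, Shmt2 alone of these still passed. Without WT replicate 2, Mdm2, Phlda3, Btg2, Bcl2l1, Bcl2l2, Mcl1, Phgdh, Psat1, Chac1, Oasl1 and Oas1a did not pass. Without KO replicate 1, Btg2 did not pass. Cdkn1a and Ddx58 passed when KO replicate 2 was left out.

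Since m6A is frequent in long internal exons, protein-coding genes were sorted by their longest annotated exon. First, last and single exons were included, so the longest exon need not be an internal one. Internal exons were not examined apart from the others. The median log2 fold change was higher in each class of longer exons: -0.19 over 1976 genes whose longest exon is under 500 bases, -0.06 over 2779 of 500 to under 1000 bases, 0.04 over 3862 of 1000 to under 2000, 0.08 over 3755 of 2000 to under 4000, and 0.16 over 1514 of 4000 bases and over. The difference between the last class and the first was 0.35, and it was 0.34 without chromosomes 6 and 8. The middle 50% of genes ran from -0.53 to 0.19 in the shortest class and from -0.21 to 0.62 in the longest, so most of the spread lay within classes. Every pair of 1 KO and 1 WT library gave the same order, with -0.21 to -0.16 in the shortest class and 0.14 to 0.15 in the longest. Between replicates the class medians stayed between -0.03 and 0.04. Levels differed between classes too, with a median of 12.5 CPM in the shortest and 27.3 CPM in the longest, and the part of level in the trend was not tested. Across the 13886 genes, which are not independent replicates, the log2 length of the longest exon and the log2 fold change had a Pearson r of 0.139 and a Spearman coefficient of 0.172.

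**Figure D4:**
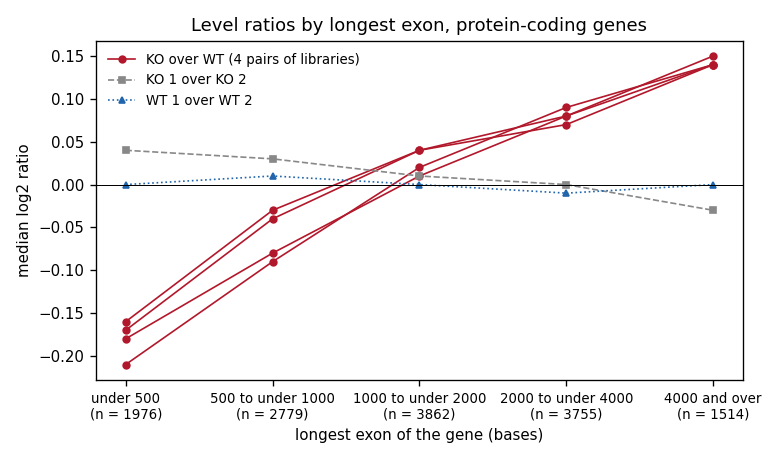
Median log2 ratio of protein-coding genes in 5 classes of the longest exon (bases, number of genes in brackets). Red lines are the 4 pairs of a KO over a WT library with medians of -0.21 to -0.16 in the shortest class and 0.14 to 0.15 in the longest, while KO replicate 1 over 2 (grey) and WT replicate 1 over 2 (blue) stay between -0.03 and 0.04.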

How the data were processed

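The authors deposited a table of raw read counts per gene and per repeat family for 22 libraries, of which the 4 Mettl3 libraries were used. STAR 2.7, RSEM, Bowtie2 and bcl2fastq, with the mm10 build, are listed in the submitters' processing notes, which give no role or settings for them. A second table the authors deposited holds the counts divided by 1 factor per library (unit signal, held in part); it supplied those factors for an alternative. Of 44749 entries, 43672 matched GENCODE mouse release 21 symbols, which gave positions, and 1077 were taken as repeat families. Libraries were scaled by TMM, low entries were removed with filterByExpr, and KO was tested against WT with edgeR 4.0.16's quasi-likelihood test (R 4.3.3) and Benjamini-Hochberg adjustment over all 23977 entries tested. Adjusted p-values in the text come from it, and DESeq2 1.42.0 was an alternative. The fit was tested on simulated data.

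The 33 gene lists and the genes named were chosen with earlier results of these data known. Genes named for size were the 15 largest rises and 15 largest falls with a mean of at least 1 CPM in the higher group, and the 10 of each with at least 50 CPM, among those past the threshold with groups that do not overlap. Other genes were named from the lists after their values were seen, and some genes that meet these rules are not reported here. Alternatives were another scaling, other filters, DESeq2, all 22 libraries, gene entries alone, a replicate block, each library left out and, added after the data were seen, leaving out chromosomes 6 and 8 and the fit of all 22 libraries without each Mettl3 library in turn. Same-numbered libraries deviated with a correlation of 0.055 over 12793 entries. Promoter windows come from RefSeq, build GRCm38.p6. Totals of 24.96 to 28.66 M counts put the counting error of well expressed genes below the spread between replicates.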

Additional observations from a re-analysis of the deposited data

How the results depend on the processing

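Against 7492 calls, leaving out each library in turn gave 351 to 9716, with 210 to 4796 higher and 141 to 4951 lower. The lowest of these came without WT replicate 1 and the next, 1928, without WT replicate 2; the cause was not tested. All 22 libraries in 1 fit gave 6320 calls. With 1 Mettl3 library left out of that fit, 4328, 4434, 3756 and 3813 passed (without KO replicate 1, KO replicate 2, WT replicate 1 and WT replicate 2), of which 2232, 2347, 1793 and 1879 were higher and 2096, 2087, 1963 and 1934 lower. DESeq2 gave 6386 calls, no filter on low counts 5426, and the authors' factors 7555. The replicate numbers did not pair the libraries; a replicate block gave 7608 calls, 3975 higher and 3633 lower. Of 66 higher and lower counts of gene lists, 61 stayed within 1.5 times with DESeq2, 47 with all 22 libraries, 50 with no filter, 4 without WT replicate 1 and 15 without WT replicate 2. Of 200 genes examined singly, 80 and 145 kept their side of the threshold without WT replicate 1 and 2, and none passed in the other direction under any alternative here.

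The median of chromosome 6 was -0.55 with a filter of 1 CPM and -0.57 with no filter or the authors' factors, and ran from -0.57 to -0.55 with a library left out (-0.55 and -0.56 in the fit of all libraries without a KO replicate). For chromosome 8 it was -0.60 with no filter, -0.59 with the authors' factors, and -0.61 to -0.57 with a library left out (-0.61, -0.56 and -0.57 in the fit of all libraries). For X it was 0.20 off chromosomes 6 and 8 and 0.20 to 0.23 with a library left out. The exon class difference had its lowest value, 0.32, without KO replicate 2 in the fit of all libraries.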

Other observations

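Some gene families were chosen for description after their values were seen, so their counts are descriptions and were not tested as sets. Replication-dependent histone genes of the Hist1 and Hist2 clusters, whose messages end in a stem loop and are made in S phase, were lower: of 66 tested, 0 rose and 50 fell (2 without WT replicate 1, 16 without WT replicate 2), against 14.9% of all entries. Their summed level was 3312 and 2894 CPM in KO, and 4599.9 and 4464 CPM in WT, with a median log2 fold change of -0.60. Hist1h2aa, a testis histone gene of the first cluster, had 0.15 and 0.299 CPM in KO, against 2.86 and 2.48 CPM in WT.

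Receptor genes of smell were at low levels in both groups, and more of those tested rose than fell in KO. Over all entries, 16.4% rose and 14.9% fell. Genes at 0 counts in WT passed the filter on low counts only through the KO libraries, so they could be called only as higher. They were 4 of the tested olfactory receptor genes, 3 of the vomeronasal type 1 genes and 3 of the Psg genes below. Of 580 olfactory receptor genes in the table, 45 were tested, and 24 rose and 3 fell (2 and 0 without WT replicate 1, 8 and 0 without WT replicate 2). Their summed level was 73 and 83.7 CPM in KO, and 47.1 and 44.1 CPM in WT. Of 10 vomeronasal type 1 receptor genes tested, 9 rose and 0 fell (3 and 6 rose without WT replicate 1 and 2), and they summed to 72.9 and 75.2 CPM in KO, and 9.8 and 10.9 CPM in WT. Of 12 vomeronasal type 2 receptor genes, 5 rose and 1 fell (0 and 0 without WT replicate 1, 1 and 0 without WT replicate 2). Of 4 Psg genes tested, 3 rose (1 without WT replicate 1), and all 3 had 0 counts in WT. Of 11 Nlrp genes, 4 rose and 0 fell (2 without either WT library). Clustered protocadherin genes, which give neurons their surface identity, did not pass: of 34 tested, 0 rose and 0 fell, and 0 rose and 14 fell without KO replicate 1.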
